A study of Mus musculus with 4 samples.

Results

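The small RNAs described here are the reads of piRNA length, 25 to 31 nt, that the authors' deposited table places in its class of genes. They were chosen by those 2 columns, counted once per library, and they comprised 901263 distinct sequences among 3075975 of that length and 4496542 in all. Their 2215545 reads were part of 22449671 reads of 25 to 31 nt. Libraries came from whole testes of 16-day-old mice, 2 labelled wild type (WT) and 2 labelled Hsf5 knockdown, each group with biological replicates 1 and 2. Hsf5 encodes heat shock factor 5, a transcription factor of the testis, and the series was designed to follow piRNA levels in spermatogenesis with less of it. The labels give no strain, no method of knockdown and no cell type in which it acts, and the table itself names the knockdown libraries as knockouts. They also do not say whether an animal or a pool was used, so p-values below measure the spread between these libraries only. A testis of this age holds spermatogonia and meiotic spermatocytes but as yet no mature sperm.

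PIWI-interacting RNAs (piRNAs) are germ cell small RNAs cut from long single-stranded precursors and bound by PIWI proteins, in the mouse testis MILI and later MIWI. Their 5' ends are mostly U, a preference tied to cleavage by the mitochondrial nuclease PLD6 and to the binding pocket of the PIWI protein. Beside the large intergenic clusters, mRNAs, above all their 3' UTRs, are known sources of piRNAs in the prepubertal testis. Other RNAs leave fragments of the same length: box C/D small nucleolar RNAs (snoRNAs), which guide RNA methylation and begin with a conserved C box, and any abundant transcript that is degraded.

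The gene names of the reads are not in the table, whose name column is empty for this class (0 lines with a name), so each sequence was matched to the mouse genome GRCm39 and to GENCODE annotation. The most abundant coding-sequence reads of 3 mRNAs are printed to show the shared first base, which is in capitals (T in the table stands for U). They were picked after the values were seen, from the 15 mRNAs of most reads.
Maz, chr7:126624699-126624724, minus strand: Tgtgaccacgactgcctctgggaagc
Chst1, chr2:92443531-92443557, plus strand: Tgcaatgttcttggaaggctgtcctcc
Sec61a1, chr6:88482122-88482146, minus strand: Tgagatcttcgtcaaggaacagagc
The leading sequences of 4 snoRNA genes, picked after the values were seen from those of most reads, begin with different bases. Capitals mark the C box letters TGATGA where they occur.
Snord68, chr8:123829772-123829796, plus strand: tggaaTGATGAcattctccggaatc
Snord82, chr1:86284025-86284050, minus strand: cacaagTGATGAgtgacaaagggact
Gm25878, chr2:166905399-166905428, plus strand: gtaaaTGATGAactcacttttttccccgtc
Snord43, chr15:79967060-79967087, minus strand: actctgtgctgaatgtcaagttctgatt

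Gene-class reads numbered 732360 in WT replicate 1, 440378 in WT replicate 2, 419153 in knockdown replicate 1 and 623654 in knockdown replicate 2, and all sets of 4 values below keep this order. They made up 12.75%, 8.27%, 9.63% and 8.88% of the 25 to 31 nt reads, with Wilson 95% intervals of 12.72 to 12.77%, 8.244 to 8.291%, 9.603 to 9.659% and 8.857 to 8.899%, which cover counting error only. The groups overlapped (10.5% ± 3.17 against 9.25% ± 0.533, SD, n = 2 each; two-sided exact permutation test, p = 1). The smallest p this test can give with 2 libraries against 2 is 0.3333. Without WT replicate 1 the knockdown mean was 0.987 percentage points above the other WT library, the opposite direction. Most sequences were rare: 62.37% were read once in all, and the 1.357% found in all 4 libraries held 28.49% of reads. Knockdown replicate 1 stood apart in length and in reads from certain loci, and knockdown replicate 2 in reads without a 5' U. Both are given with the results they touch.

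By place, 49.6% of the gene-class reads lay in exons of mRNAs on the sense strand. Within that, 3' UTRs held 25.3% of the class, coding sequence 20.94% and 5' UTRs 2.733%. Introns held 18.94%, snoRNA genes 8.975%, exons of long non-coding RNAs (lncRNAs) 6.693%, other small RNA genes 1.202% and mitochondrial rRNAs and tRNAs 0.4197%. Antisense reads were few (0.4765%), and 12.08% of reads had no place under the matching used. The 198849 reads in snoRNA genes came from 4519 sequences, 44 reads each, whereas the 1098942 mRNA reads came from 576987 sequences, 1.905 reads each. Reads on mRNAs were thus spread over many sites, and snoRNA reads piled up on a few.

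The first base followed the place. In 3' UTRs 81.02%, 83.43%, 82.88% and 88.2% of reads began with U. In coding sequence the shares were 61.65%, 69.44%, 68.53% and 78.94%, and in snoRNA genes 40.72%, 41.04%, 40.75% and 46.54%. Mitochondrial rRNA and tRNA reads within the class had 17.84%, 17.15%, 18.21% and 15.65%. Reads of the table's piRNA cluster class of the same length had 90.66%, 90.4%, 91.34% and 91.76%. In every library the 3' UTR share lay below that of piRNA clusters and above that of coding sequence, and the snoRNA and mitochondrial shares lay lowest.

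**Figure D1:**
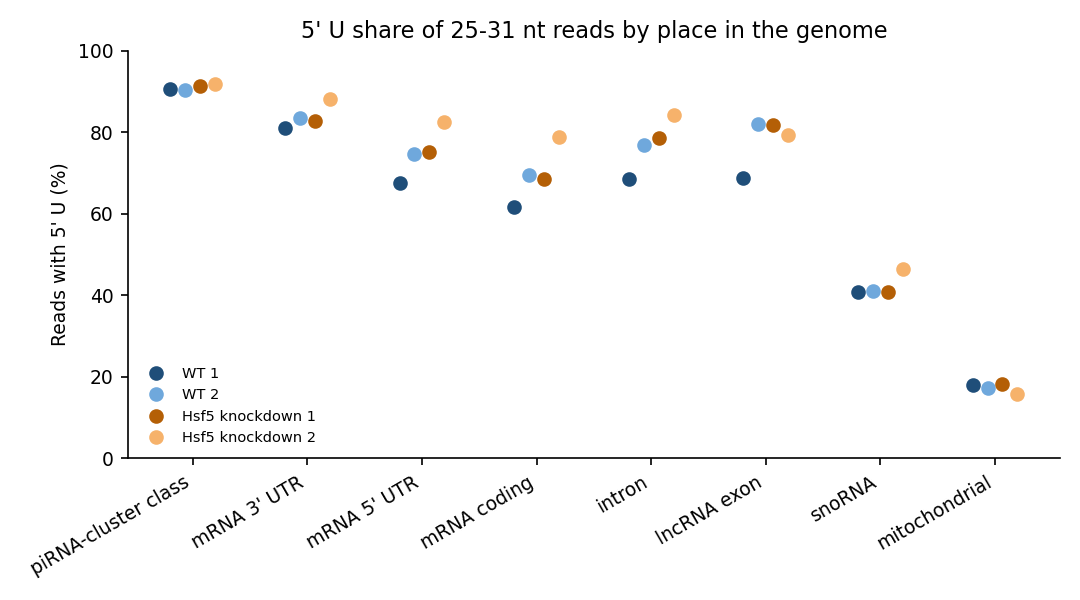
Share of 25 to 31 nt reads with a 5' U (vertical axis, percent) by place (horizontal axis), 1 point per library in blue for WT and orange for Hsf5 knockdown. The piRNA-cluster class sits at 90.4% to 91.76%, 3' UTR reads at 81.02% to 88.2%, snoRNA reads at 40.72% to 46.54% and mitochondrial reads at 15.65% to 18.21%.

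The U preference exceeded the base composition of the mRNAs. Over the 4232 mRNA genes with 50 or more reads, U stood first in 79.42% of the 185065 distinct 3' UTR sequences, whereas U makes up 29.52% of all 3' UTR positions of these mRNAs. In coding sequence the share was 63.6% against 21.84%, and in 5' UTRs 66.21% against 17.93%. The base just after the read was U in 29.73%, 22.72% and 21.29% (3' UTR, coding sequence and 5' UTR), beside the 29.52%, 21.84% and 17.93% of the composition. The last base of the read was C in 37.6%, 39.78% and 42.64%, whereas C makes up 21.81%, 25.45% and 31.48% of positions in the same order. Head-to-tail spacing, in which 1 piRNA begins where the last one ends, was not in excess. A 5' end at distance 1 nt from a 3' end made up 4.88% of the pairs at 1 to 20 nt, and distances 2 to 20 nt had a mean of 5.006% each. An A at position 10, a mark of slicer-made secondary piRNAs, stood in 21.57%, 22.56%, 22.08% and 21.39% of the gene-class reads, with overlapping groups.

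Over the whole class, 66.66%, 73.66%, 73.53% and 79.79% of reads began with U. The means were 70.2% ± 4.955 in WT and 76.7% ± 4.424 in knockdown (SD, n = 2 each), a difference of 6.5 percentage points (two-sided exact permutation test, p = 0.6667). WT replicate 1 was lowest and knockdown replicate 2 highest, while the other libraries of the groups were nearly equal. The same order held in coding sequence, and the share for all other classes was 77.79%, 84.46%, 82.57% and 85.74%.

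In length, fully matched mRNA reads peaked at 27 nt in each library. The ratio of 29 to 31 nt reads, lengths bound mainly by MIWI, to 25 to 28 nt reads, bound mainly by MILI, was 0.3622, 0.3001, 0.191 and 0.3148 on mRNA exons, over all placed reads. On lncRNA exons it was 1.105, 0.9306, 0.4135 and 1.252, higher than on mRNA exons in each library. Gm41421 alone had a ratio of 61.99, and 68.97% of the placed lncRNA exon reads had an unmatched last base. The part of either in the lncRNA ratio was not tested. The median lncRNA gene with 50 or more reads had 0.317, the median mRNA gene 0.2817. For the class as a whole the ratio was 0.4752, 0.4438, 0.2438 and 0.4756 (0.4595 ± 0.02219 in WT and 0.3597 ± 0.1639 in knockdown, SD, n = 2 each; exact permutation test, p = 1). Knockdown replicate 1 alone had few long reads, on every kind of gene shown. Without it, knockdown replicate 2 was 0.01614 above the WT mean.

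**Figure D2:**
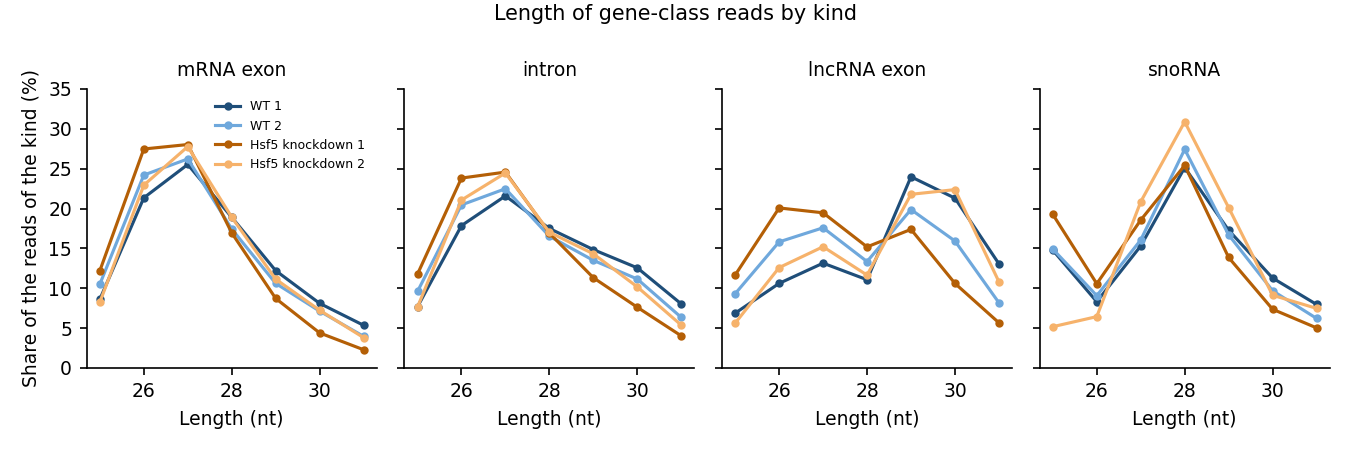
Length of fully matched gene-class reads (horizontal axis, nt) as a share of the reads of the kind in the library (vertical axis, percent), 1 line per library. Knockdown replicate 1 is lowest at 30 and 31 nt in mRNA, intron, lncRNA and snoRNA reads, with a long-to-short ratio of fully matched mRNA exon reads of 0.1816 against 0.2765 to 0.3446 in the others.

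A total of 16856 genes had at least 1 read that matched in full. Of these, 4460 genes had 50 or more reads over the 4 libraries, the threshold used here, and they held 1077899 reads, 48.65% of the class. At the threshold, 72 genes had 50 reads and 73 had 49, such as 1700030K09Rik (7, 10, 17 and 16 reads) just inside and Aar2 (22, 10, 11 and 6 reads) just outside. The members were 4232 mRNA genes, 131 snoRNA genes, 81 lncRNA genes, 8 other small RNA genes, 3 mitochondrial rRNA or tRNA genes and 5 others. Reads were spread widely: 50% of the members' reads came from 434 genes. Expressed as a share of the class, the 10 genes of most reads held 6.46%, 4.574%, 4.257% and 6.099%, with overlapping groups.

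Kinds of genes separated by their 5' U share. The median gene of the mRNA group had 75.47% (quartiles 61.28% and 84.58%), and 1622 of 4232 had over 80%. LncRNA genes had a median of 87.5%, snoRNA genes 22.22%. Under 50% lay 96 of 131 snoRNA genes but 514 of 4232 mRNA genes. Among mRNA genes, the 1854 with most of their reads in the 3' UTR had a median of 81.94%, and the 2260 with most in coding sequence 67.16%.

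**Figure D3:**
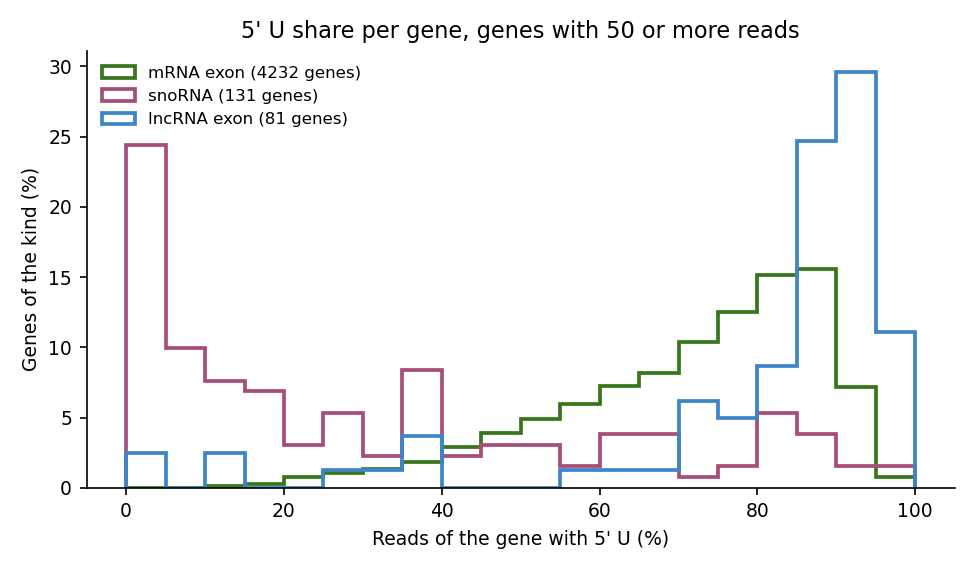
Distribution of the 5' U share per gene (horizontal axis, percent of the gene's reads over 4 libraries) for members with 50 or more reads, as percent of the genes of the kind (vertical axis). The 131 snoRNA genes concentrate at low shares, with a median of 22.22%, and the 4232 mRNA genes peak between 80 and 90%, with a median of 75.47%.

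Per length of the gene's annotated transcript, 3' UTRs of the member mRNAs gave 45.23 reads per kb, coding sequence 33.46 and 5' UTRs 27.71 (reads summed over the libraries). The 3' UTR held 54.73% of the reads placed in these regions and 46.65% of their length. By library that share was 54.9%, 52.85%, 50.31% and 58.56%, so knockdown replicates 1 and 2 lay on either side of both WT libraries.

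The mRNA of most reads was Glg1, which encodes a Golgi glycoprotein. It gave 1767, 1044, 1318 and 1862 reads, or 307.5, 196, 302.8 and 265.1 counts per 1e6 reads of 25 to 31 nt (CPM), from 881 distinct sequences. Of its reads 96.98% lay in the 3' UTR and 90.04% began with U. The groups overlapped in CPM. Near it on chromosome 8, on the opposite strand, lies Pdpr, a regulator of pyruvate dehydrogenase phosphatase, with 132.3, 116.2, 115.3 and 160.1 CPM, 86.13% of it in the 3' UTR.

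Sec61a1, a subunit of the endoplasmic reticulum translocon, had 158, 147.2, 173.2 and 143.8 CPM, with 58.22% in the 3' UTR. Maz, a zinc finger transcription factor, had 113.1, 153.2, 145.7 and 148.9 CPM, but 79.91% of its reads lay in coding sequence. The groups of libraries overlapped in each of these mRNAs.

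Chst1, a carbohydrate sulfotransferase gene, differed in place: 82.45% of its reads lay in the 5' UTR. Its levels were 67.88, 112.1, 180.6 and 206.7 CPM, both knockdown libraries above both WT libraries. The log2 fold change was 1.17 (SE 0.599) with an adjusted p of 0.9995 (edgeR quasi-likelihood test, Benjamini-Hochberg), so it did not pass. Taken over the 15 mRNAs of most reads, a set viewed after the ranking was known, the highest 5' U share was 93.57% (Tmem170b). In 13 of the 15 most reads lay in the 3' UTR, and the long-to-short ratio ran from 0.1432 to 0.3328.

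Among all 15 genes of most reads, 11 were snoRNAs, 2 lncRNAs, 1 a mitochondrial rRNA and 1 an mRNA (Glg1). Gm24452 led with 1080, 569, 598.6 and 1736 CPM and 96.49% 5' U. Snord68 followed with 1646, 744.3, 855 and 158.9 CPM, lowest in knockdown replicate 2, and 1 sequence of 25 nt made up 76.51% of it. Its 5' U share of 98.14% was among the 5 highest of the genes with 200 or more reads, with most of its reads in that 1 sequence. A high U share thus occurred in a gene read mainly as 1 sequence as well as in mRNAs read as 431 or more sequences.

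Snord104 gave 856.5, 450, 520 and 858.9 CPM, Snord57 761.1, 351.4, 341.7 and 681.8 CPM, and Snord82 854.7, 379, 447.6 and 270.7 CPM. The groups overlapped in each. Snord43 had 634.7, 357.1, 346.5 and 489 CPM with 0% 5' U in 10492 reads (GENCODE gives this locus the type miRNA), and the sequence printed above was 91.12% of them. Snord47 had 402, 168.4, 167.7 and 148.9 CPM, Snord85 272.4, 177.8, 173 and 75.87 CPM, and Gm25878 452.7, 146.6, 105.5 and 121.1 CPM. In these 3 both knockdown libraries lay below both WT libraries, with an adjusted p of 0.9995 each (edgeR). Snord47, Gm26224 and Gm23212 lie together on chromosome 1, between 160862964 and 160865728. Gm26224 had 330.3, 148.3, 110.5 and 203.1 CPM and Gm23212 293.8, 119.2, 192.8 and 135.4 CPM, with overlapping groups.

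The letters TGATGA, the core of the C box, stood in 51.63%, 49.46%, 49.6% and 29.49% of snoRNA-gene reads (on the strand of the read). In all other classes of the table they stood in 1.201%, 1.179%, 1.022% and 1.222% of reads of the same length. The low share in knockdown replicate 2 goes with Snord68, whose main sequence carries these letters and had 600 reads there, against 7322, 3009 and 3042 in the other libraries; its part in the share was not tested.

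Of the 2 lncRNAs among the 15, Gm41421 had 1129, 341.1, 316.2 and 729.5 CPM, 0.08782% of it with a 5' U. Its top sequence, at chr16:13255259-13255288 on the plus strand, is gccctctttccgtgtggatttaagaatttt, with 5867 reads. Forms 1 base shorter and 1 base longer from the same start had 5730 and 2904 of its 14803 reads. Gm73145 had 304.6, 118.6, 152.8 and 100.6 CPM, and 13.64% of it began with U. The mitochondrial large rRNA mt-Rnr2 had 562.2, 225.1, 204.3 and 75.16 CPM, with both knockdown libraries below WT (log2 fold change -1.24, SE 0.634, adjusted p = 0.9995 in edgeR).

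At the other end of the 5' U ranking, genes with 200 or more reads and the highest shares were Gm73947 (99.34%), Gm2762 (98.37%), Snord68, Uqcc2 (97.52%) and Znhit2 (96.55%). The lowest were Snord43, Gm25970 and Mir222 (0% each), Gm41421 and Gm25744 (0.1377%). Of the lowest, all but the lncRNA Gm41421 are snoRNA or miRNA genes. Uqcc2 and Znhit2, a mitochondrial assembly factor and a zinc finger protein, are protein-coding genes. Of the Uqcc2 reads 37.13% lay in coding sequence and the largest part in a non-coding isoform.

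Named gene lists were read for first base and level, with no test of a list. From the piRNA pathway list 18 of 29 genes had 50 or more reads, led by Piwil2, which encodes MILI itself (19.84, 15.96, 20.91 and 14.95 CPM), and Tex15 (24.37, 11.83, 13.33 and 9.537 CPM). Its reads had 70.19% 5' U. The meiotic prophase list had 16 of 34 members and 69.42% 5' U, led by the DNA damage mediator Mdc1 (37.94, 17.27, 18.38 and 24.34 CPM) and the cohesin subunit Stag3 (21.93, 17.27, 23.21 and 22.49 CPM). Spermatogonial genes had 9 of 18 and 81%, led by Ccnd2 (44.03, 16.14, 15.17 and 26.48 CPM) and Zbtb16 (33.07, 18.59, 14.02 and 16.09 CPM). In all 3 lists over 69% of the pooled reads began with U. The lowest members of the 3 lists, in this order, were Ddx4 (36.9%), Smc1b (37.36%) and Kit (29.69%).

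Histone genes, 17 of 87, had 79.64% 5' U, led by the testis linker histone H1f6 (41.6, 39.99, 70.54 and 53.24 CPM, knockdown above WT, adjusted p = 0.9995 in edgeR) and H1f3 (33.76, 19.71, 39.52 and 11.81 CPM). Heat shock genes, 9 of 23, had 65.33%, led by the endoplasmic reticulum chaperones Hspa5 (75.19, 30.6, 35.84 and 30.75 CPM) and Hsp90b1 (48.73, 29.1, 45.27 and 37.15 CPM). Of the spermatid list only 2 of 20 were members, Ldhc (13.23, 16.52, 18.15 and 12.38 CPM) and Odf2 (3.829, 3.191, 5.285 and 2.705 CPM). Of ribosomal protein genes 6 of 88 were members, with 54.41% 5' U over the list. Rpl7a led (37.07, 17.83, 14.48 and 27.9 CPM), with no read in its coding sequence or UTRs and most in a non-coding isoform. It held 567 of the list's 1722 reads, with 25.04% 5' U, and the other members had 52.05% (Rpl8) to 92.98% (Rps3). The part of Rpl7a in the list's share was not tested.

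Sertoli and peritubular lists had a lower 5' U share. The Sertoli list (5 of 22 members) had 32.05% 5' U, with Clu (60.92, 25.53, 33.78 and 12.24 CPM) and Ctsl (20.36, 7.697, 12.87 and 5.979 CPM) in front. The peritubular and vessel list (8 of 13) had 26.08%, with Pdgfra at 61.05% the highest of its members, and was led by the matrix genes Sparc (37.25, 13.33, 24.59 and 7.971 CPM) and Col1a1 (34.98, 12.95, 22.75 and 5.552 CPM). Of Leydig cell genes 1 of 11 was a member, Star (6.614, 2.44, 2.987 and 4.697 CPM, 69.07% 5' U), and the next was Scarb1 with 40 reads; the list's reads had 51.47% 5' U. Of blood genes 0 of 11 were members, and C1qa and Csf1r led with 7 and 5 reads. Summed Sertoli reads were 137.3, 60.45, 73.3 and 30.04 CPM, peritubular and vessel reads 157, 64.2, 90.53 and 26.05 CPM, and mitochondrial genome reads 929.7, 371.5, 355.5 and 125.7 CPM (18.49% 5' U). All of these were highest in WT replicate 1 and lowest in knockdown replicate 2. In whole testis, fewer cells of a type and less RNA per cell cannot be told apart.

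Genes that host piRNA loci seldom reached 50 reads in the class. The table's piRNA cluster class names 114 loci after genes, 109 of which matched a GENCODE symbol, and 81 of these had at least 1 gene-class read. Of the 109, 6 were members (5.505%), beside 26.46% of all genes with a read. The 2 shares are not alike, since the 109 include genes without a gene-class read. Each sequence also has 1 class, so reads given to the piRNA cluster class do not count here. For 1700006A11Rik those were 19912, beside 557 gene-class reads. The comparison thus cannot show how many small RNAs these genes yield, and the difference was not tested. The 6 were 1700006A11Rik, Socs7, Nr2c2, Zbtb49, Nemp1 and Tbl2, named because they are so few. None was among the 100 mRNA genes of most reads. 1700006A11Rik had 187, 176, 0 and 194 reads, and the 0 in knockdown replicate 1 allows up to 0.6893 CPM (3 reads). It was the only 1 of 1203 genes with 200 or more reads that lay below 5% of the lowest other library in that library.

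Small RNA reads from Hsf5 itself numbered 39, 28, 21 and 25 (6.788, 5.256, 4.825 and 3.559 CPM), 60.18% of them in the 3' UTR and 68.14% with a 5' U. The knockdown libraries lay below WT, with a log2 fold change of -0.35 (SE 0.467, adjusted p = 0.9995, edgeR). These are small RNAs cut from the transcript, so they do not check its knockdown.

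The knockdown was compared with WT in 1 fit over 8484 features of the table (genes of this class and names of the other classes). No member passed: 0 of 4460 had an adjusted p under 0.05 in edgeR's quasi-likelihood test, against 0.0236% of all features, and 0 did in DESeq2. Unadjusted p-values under 0.05 were found in edgeR for 68 of 4460 members in the higher direction and 87 in the lower. Over all 8484 features these counts were 128 and 165 (1.51% and 1.94%, 3.45% in either direction). In DESeq2 17 and 24 members had such a p, beside 39 and 53 of all features. Both knockdown libraries lay above both WT libraries in 739 members (16.6%) and below in 650 (14.6%), beside 14.9% and 15% of all features. These counts use reads scaled with the TMM factors of the fit, whereas groups of single genes were compared in CPM, by library size alone. A gene whose groups overlapped in CPM can thus be counted here. The median log2 fold change of the members was 0.04, and of all features 0.02. Scaling mattered for direction: with library size alone the median of all features moved to -0.20 and that of the members to -0.19. The unadjusted calls were then 13 members higher and 97 lower, beside 37 and 197 of all 8484 features.

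The calls depended on which knockdown library was used. With knockdown replicate 2 left out, 20 of 4455 members passed, 5 higher and 15 lower, beside 1.05% of all features (85 of 8087). The 15 had 0 to 7 reads in knockdown replicate 1, among them Qrich2 (44, 78, 0 and 45 reads), Morc2b (51, 49, 0 and 68 reads) and Peli2 (25, 15, 0 and 19 reads), beside 1700006A11Rik. With knockdown replicate 1 left out, 17 of 4452 members passed, 4 higher and 13 lower, beside 0.439% of all features (34 of 7739). Smooth muscle and collagen genes were among the lower ones: Myh11 (61, 22, 13 and 3 reads), Col3a1 (127, 62, 53 and 18 reads) and Col1a2 (135, 61, 54 and 24 reads). The 2 sets shared 0 of 37 genes, and the difference between the sets was not tested. Here 1 library stood for the knockdown and was assumed to vary like WT, and these genes were named after their values were seen.

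The 5 members of lowest unadjusted p in the higher direction were Gm73947, Mcf2l, Gpr179, Alkbh6 and Kif4-ps. The lncRNA Gm73947 had 6.092, 6.758, 18.38 and 21.64 CPM (log2 fold change 1.795 with SE 0.425; unadjusted p = 0.0004055, adjusted p = 0.6881 in edgeR). Mcf2l had 1.044, 0.5632, 7.123 and 2.135 CPM. The orphan receptor gene Gpr179 had 1.218, 0.3755, 6.434 and 2.278 CPM, Alkbh6 1.566, 0.5632, 3.447 and 3.986 CPM, and Kif4-ps 6.614, 7.697, 17.23 and 15.8 CPM. Their log2 fold changes were 2.64, 2.59, 2.04 and 1.34 with SE 0.697, 0.697, 0.632 and 0.418, each with an adjusted p of 0.9995 in edgeR. The 5' U shares of these genes were 65.45% to 99.34%.

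In the lower direction stood Hdac6, mt-Nd4, Cst12, Sptbn1 and Snora23. Hdac6, a cytoplasmic deacetylase, had 11.49, 5.069, 2.528 and 1.281 CPM (log2 fold change -1.91 with SE 0.521; unadjusted p = 0.001521, adjusted p = 0.9995 in edgeR). The mitochondrial mRNA mt-Nd4 had 9.398, 5.069, 2.528 and 0.7117 CPM, the cystatin gene Cst12 9.746, 3.942, 1.608 and 1.423 CPM, the spectrin gene Sptbn1 18.1, 9.762, 5.974 and 2.847 CPM, and Snora23 7.484, 4.506, 2.068 and 0.1423 CPM. Their log2 fold changes were -2.03, -1.89, -1.47 and -2.42 with SE 0.571, 0.540, 0.440 and 0.721, again with an adjusted p of 0.9995 each in edgeR. In all 5 WT replicate 1 was highest and knockdown replicate 2 lowest in CPM, and 26.8% to 64.94% of their reads began with U.

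Across mRNA genes the change differed with the first base, both taken from the same reads, so the following is a description. The 93 genes with under 30% 5' U had a median log2 fold change of -0.79, and 17 of them had an unadjusted p under 0.05 in the lower direction and 0 in the higher. The 421 genes at 30 to 50% had a median of -0.36. Medians of the next groups were -0.04 (50 to 70%), 0.10 (70 to 80%) and 0.14 (80 to 90%). The 339 genes at 90% or more had 0.26, with 18 higher and 2 lower at that p. In the 4 groups between, of 421, 1111, 970 and 1298 genes, 1, 12, 14 and 18 were higher. In the same order 22, 16, 6 and 5 were lower. Of all features 1.51% were higher and 1.94% lower at that p. Summed over the genes, reads of the under-30% group were 871.1, 362.1, 455.9 and 220.6 CPM, and those of the group of 90% or more 6778, 4823, 5724 and 6499 CPM. The groups of libraries overlapped in both. These CPM are scaled by library size alone, whereas the fold changes also use TMM factors (1.354, 0.8361, 0.997 and 0.8861), so the 2 scales differ. Levels of the low-U genes followed the somatic lists, highest in WT replicate 1 and lowest in knockdown replicate 2, and the part of those cells in the change was not tested.

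**Figure D4:**
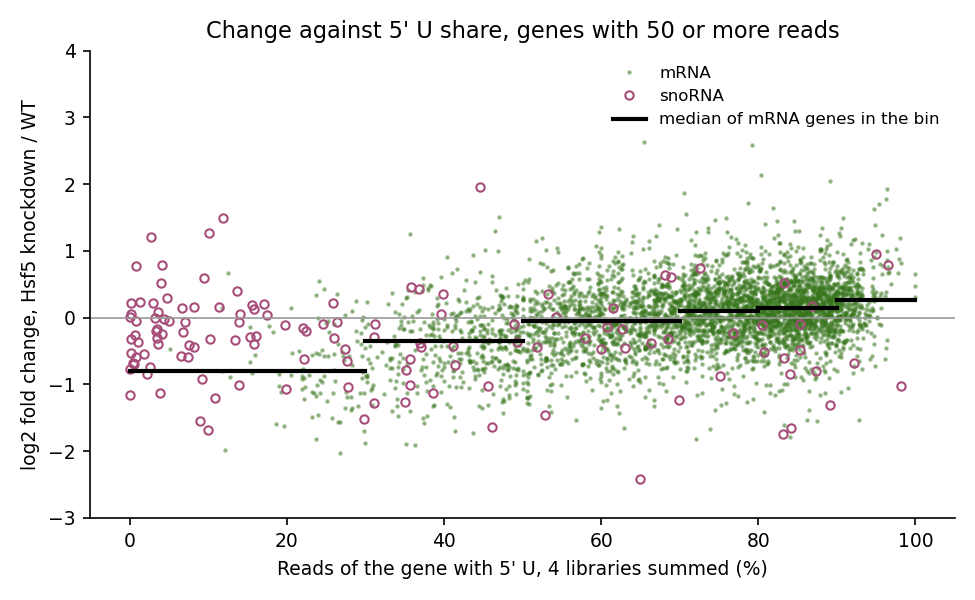
Log2 fold change, Hsf5 knockdown over WT (vertical axis, edgeR), against the share of the gene's reads with a 5' U (horizontal axis, percent), for mRNA (green) and snoRNA (purple rings) members. Black bars give the median of the mRNA genes in each range of U share, from -0.79 under 30% to 0.26 at 90% or more.

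The counts of genes above and below WT by kind use the TMM factors as well. Of 131 snoRNA genes 43 lay below WT in both knockdown libraries (32.8%) and 4 above (3.05%), beside 15% and 14.9% of all features. Their median log2 fold change was -0.30, and 18 had an unadjusted p under 0.05 in the lower direction and 1 in the higher. Of all features 1.94% and 1.51% had such a p in edgeR. None passed adjustment. LncRNA genes had 13 of 81 above and 5 below, with a median of 0.17.

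Reads with an unmatched last base formed a second, U-ended population. Reads that matched in full made up 68.56% of the class, and in a further 19.36% all but the last base matched. By library the latter share was 15.18%, 22.95%, 20.31% and 21.1%, with overlapping groups. Their last base was U in 87.87%, 89.09%, 88.99% and 89.42%, whereas the fully matched reads ended in U in 24.86%, 23.95%, 22.84% and 23.46%. Addition of U to 3' ends is known of small RNAs that lack the 2'-O-methyl group which protects mature piRNAs. How the unmatched base arose in these reads was not tested. The 5' U shares of reads with an unmatched last base were 88.03%, 89.44%, 89.88% and 90.59%. They lay below those of the piRNA cluster class in each library and above those of the fully matched gene-class reads (61.77%, 67.9%, 68.42% and 76.27%).

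**Figure D5:**
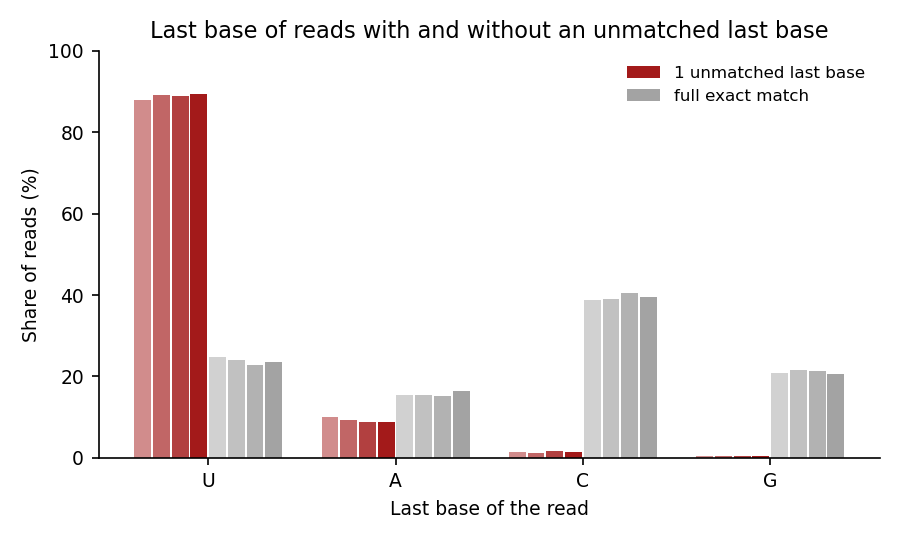
Last base of gene-class reads (horizontal axis) as a share of reads (vertical axis, percent), red for reads whose last base alone does not match the genome and grey for full matches, 4 bars per color from light to dark for WT replicates 1 and 2 and knockdown replicates 1 and 2. U ends 87.87% to 89.42% of the former and 22.84% to 24.86% of the latter.

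Without the last base, the same sequence stood elsewhere in the table for most of these reads. For 67.09% it was in the piRNA cluster class, for 3.505% in the miRNA class and for 6.625% in the gene class; for 19.73% it was not in the table. Thus 287800 reads, 12.99% of the gene class, were sequences of 175 piRNA loci plus 1 base. One locus, 17-qA3.3-26735, gave 55.32% of them, with 41437, 34172, 43398 and 40197 reads. The locus 7-qD2-24830 gave 2647, 3622, 1 and 3822 reads. Its reads in the piRNA cluster class were 73707, 104768, 20 and 114039, so both forms were near absent in knockdown replicate 1. By kind, the share with an unmatched last base was 68.97% of the placed reads of lncRNA exons, 44.77% of introns, 10.36% of 3' UTRs, 8.518% of coding sequence and 0.8117% of snoRNA genes.

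The sequences below show the unmatched last base in capitals. The first 3 come from piRNA clusters and the last 2 from miRNA genes. They were the 5 leading ones of up to 30 nt among the sequences ranked, which had 1 place in the genome and left out 1 chromosome.
Gm67860 exon, chr9:67643243-67643272, plus strand: ttgatggtaattggaagagcttctgggtgT
Gm10505 intron, chr17:27555853-27555880, plus strand: tgagaatcaaagatgggaccttgctcgT
Gm10505 intron, chr17:27554803-27554829, plus strand: tggaatggtctttctggaatgatgggT
Mir470, chrX:65857599-65857623, minus strand: ttcttggactggcactggtgagttT
Mir351, chrX:52142191-52142215, minus strand: tccctgaggagccctttgagcctgT
The Gm67860 sequence had 931, 1069, 269 and 1185 reads with the base and 1040, 1423, 345 and 2596 without, so 38.99% carried it. For the 2 Gm10505 sequences the shares were 39.18% and 38.02%. For the miR-470 sequence 27.02% carried it, with 1917, 1043, 1484 and 1348 reads against 4562, 2862, 3946 and 4275 without. For miR-351-5p (58.55%) the form with the unmatched U exceeded the form without it (1759, 930, 1237 and 681 against 1154, 622, 1061 and 425 reads).

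A set of unmatched sequences divided the libraries by replicate number and not by group. Of 499 sequences with 40 or more reads and neither a full match nor a match up to the last base, 105 sequences (17342 reads) were found in replicate 1 of both groups and in neither replicate 2. The reverse pattern was found for 0 of them, and among 1096 fully matched sequences of that depth neither pattern occurred. With up to 2 mismatches 93 of the 105 had 1 best place, 92 of them on chromosome 17 between 27544895 and 27574780, in or beside Gm10505. Capitals mark the differing base in the most abundant sequence and in the genome.
Read, WT and knockdown replicates 1: tgctCtgtcagactgcccaggaagaga
GRCm39, chr17:27556898-27556924, plus strand: tgctGtgtcagactgcccaggaagaga
Counted from the 5' end of the read, the difference is G5C (genome base first). The read had 762, 0, 1046 and 0 reads, and the form of the genome had 198, 394, 323 and 713. Over the 93 sequences the forms of the genome had 5047, 7763, 5498 and 8677 reads, so both forms were present in replicates 1. Of these genome forms, 83 were in the piRNA cluster class. These sequences at 1 locus thus separated replicates 1 from replicates 2 in both groups.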

How the data were processed

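Small RNA libraries of total testis RNA with inserts of 18 to 40 bases were sequenced, per the labels' protocol. The deposited table gives raw counts made by the authors, 1 line per sequence, library and annotation. Its ratio column, the authors' scaling factor with 1 value per library, served only as an alternative. The submitters' processing notes name cutadapt and mm39, without versions. How reads were aligned and which class took precedence was not stated in the sources used here. Totals were 9260452 to 11117460 reads, and 3 reads are 0.427 to 0.6893 CPM of the 25 to 31 nt reads.

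Each gene-class sequence was counted once per library (6659279 lines, 1047950 pairs). The design expected gene names in the table; since there are none, the first 22 bases and then the whole read were matched exactly to GRCm39 and GENCODE M39. Small RNA genes (at least 50% of the read inside, same strand) came first, then sense transcripts, introns, antisense. Only full matches entered gene totals, and sequences naming several genes (0.7923% of reads) did not. Overlapping genes, and snoRNA copies that share sequence, remain uncertain.

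Features with 1 CPM in at least 2 libraries were tested with edgeR 4.0.16 (quasi-likelihood, robust, TMM factors 1.354, 0.8361, 0.997 and 0.8861; R 4.3.3), Benjamini-Hochberg at 0.05, with DESeq2 1.42.0 as an alternative. Tested on simulated data of this comparison with a biological coefficient of variation of 0.3 (fitted value 0.3943), the fit recovered 49% of 4-fold and 4% of 2-fold changes over 7996 features, and 91% and 70% with 0.1 over 8029. Single values were compared by exact permutation over 6 assignments.

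Members and lists were chosen with earlier results of these data known; the histone and ribosomal protein lists were corrected afterwards for symbols of other genes. Named genes were the 15 of most reads, the 5 of lowest p in each direction, 2 per list, Hsf5, the 5 highest and lowest in 5' U share among genes with 200 or more reads, and genes at the threshold; others are marked as chosen after their values were seen. A few items that these rules name are not reported here. Python 3.11.15, pandas 2.3.3 and numpy 2.4.6 were used.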

Additional observations from a re-analysis of the deposited data

How the results depend on the processing

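The count of member genes that passed, 0, was also 0 with DESeq2, RLE factors, library size alone, the authors' factor, no filter, several-gene sequences counted in each gene, each distinct sequence once, 25 to 28 nt only, 29 to 31 nt only, and, chosen after seeing the data, reads with an unmatched last base added. Leaving out 1 library gave 0 to 20. With the replicate number as a block it was 4: Gm26202 (edgeR adjusted p = 0.02119) and Gm73947 (0.04222) higher, Qrich2 (0.03274) and Snora23 (0.04796) lower. The labels do not say that numbers pair libraries. Replicates 1 shared 105 sequences absent from replicates 2, and deviations of same-numbered libraries correlated at 0.1814 over all features and 0.07905 over members. Over all 8484 features (a count added after seeing the data) 2 passed, neither a member; with the replicate block 13 did, with library size alone 4, without a filter 6, with DESeq2 1, with each distinct sequence once 0 and with 29 to 31 nt only 0. Leaving out 1 library gave 0 to 85; the cause was not tested.

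The difference in gene-class share (-1.252 percentage points) ran from -3.492 to 0.9871 on leaving out 1 library, that in the long-to-short ratio (-0.09978) from -0.2157 to 0.01614, and that in the share of the 10 genes of most reads (-0.3391) from -1.282 to 0.604. These 3 changed direction; the difference in 5' U share kept its direction under all alternatives run. One class per sequence changed nothing, as no gene-class sequence had another class in another library. Of 164 alternative fold changes of 11 named genes, 157 kept direction and side of the threshold, 7 passed it and 0 reversed.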

Other observations

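Abundant intron reads with the C box letters TGATGA, in capitals, also stood at places with no annotated small RNA gene on that strand. The 2 printed were picked after their values were seen.
Gm3134 intron, chr8:89782301-89782329, plus strand: tgactgTGATGAatcttactctgagtcac
Cdkal1 intron, chr13:29853293-29853319, minus strand: agacgaTGATGActgcttttctgagtt
The Gm3134 sequence had 549, 213, 134 and 1497 reads and the Cdkal1 sequence 615, 294, 179 and 429 reads. Intron reads of Cdkal1 had 0.8266% 5' U, while those of Gm3134 had 98.76%. Over all fully matched intron reads TGATGA stood in 6.33%, 5.275%, 4.802% and 10.66%, beside 1.71%, 1.603%, 1.554% and 1.825% on mRNA exons.

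Intron reads of some other genes began mostly with U (genes chosen after their values were seen). Introns of Mnt, which encodes a partner of Max, gave 316, 326, 1124 and 1482 reads with 92.21% 5' U, and those of Serp2 62, 127, 336 and 275 reads with 85.5%. The lncRNA Gm73947 (chr11:74730062-74730251) lies between Mnt intron reads that start at 74729792 and 74731877 on the same strand. Gm73947 and the Mnt introns are thus not 2 separate loci. Of the 17 genes with over 80% 5' U among the 20 of most intron reads, 8 lay above WT in both knockdown libraries in CPM, Mnt and Serp2 among them, 1 lay below (Cep295, with 753, 342, 250 and 144 reads) and 8 overlapped. Of all 797 genes with 50 or more intron reads 8.783% lay above and 26.22% below. Intron reads were not part of the test.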
